A study of Rattus norvegicus with 6 samples.

Results

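The genes described here are 10 mediators and effectors of inflammation, namely the cytokines Il6 and Il1b, the chemokines Ccl2, Cxcl1 and Cxcl2, the prostaglandin enzyme Ptgs2, the adhesion molecules Icam1 and Vcam1, and the secreted proteins Lcn2 and C3. They were taken as a named list, chosen with earlier results of these data known. Each was found by its Ensembl ID, so that all 10 have a row among the 32883 of the count tables. The RNA came from cultures of rat ependymal stem cells of the spinal cord, cells around the central canal with neural stem cell properties, and was sequenced in bulk. The 3 control libraries came from cells in neurobasal medium, and the 3 glutamate libraries from cells in the same medium with 500 uM glutamate added, a level described as excitotoxic. All 6 libraries were taken at day 2, and the sources used here give no strain, age or genotype of the rats. Nothing in the labels ties the libraries of a group to different animals or cultures, and the p-values below therefore rest on a spread that may be technical.

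In injured spinal cord, astrocytes, microglia and endothelial cells release cytokines that turn on a shared set of genes, largely through the transcription factors NF-κB and STAT3. The chemokines made in this way draw leukocytes to the site, CCL2 acting on monocytes and CXCL1 and CXCL2 on neutrophils, while ICAM1 and VCAM1 on a cell's surface bind leukocyte integrins. PTGS2 (COX-2) makes the precursor of prostaglandins, C3 is the central component of complement, and LCN2 is an iron-siderophore binding protein secreted by reactive glia.

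Of these genes, 5 were tested and 3 were called higher with glutamate (edgeR adjusted p below 0.05), against 14.1% of all genes tested. Ccl2, which passed the filter on low counts through its glutamate libraries alone, rose from near absence, by 23.0-fold. The adhesion genes Icam1 and Vcam1 rose by 2.01-fold and 1.46-fold. The call of Vcam1 was lost when any of 4 libraries was left out. Il6 and Cxcl2 had no read in any of the 6 libraries, and Il1b, Cxcl1 and Lcn2 had too few reads to be tested. Ptgs2 was 1.61-fold higher in the fit but did not pass the test, and C3 had a fitted fold of 0.903 with a wide interval.

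Sequence just upstream of the genes was set beside these levels because the list is defined by inducible genes, several of them known NF-κB targets, yet its members differed widely in reads. RefSeq promoter windows (build GRCr8) were matched by symbol for 9 of the 10 genes, all but Ccl2, and the 250 bases before the annotated start were searched on both strands for the NF-κB consensus, a 10-base motif, and for TATAAA and TGANTCA (an AP-1 site). The NF-κB consensus matched in 5 of the 9 windows, those of Il6, Cxcl1, Cxcl2, Vcam1 and Lcn2. It matched in 6.33% of all 33469 windows of the same length. Since the list holds known NF-κB targets, these shares are not read as an enrichment. TATAAA matched in 3 of 9 (Il1b, Icam1 and Vcam1) against 12.9% of all windows, and TGANTCA in 0 of 9 against 6.34%. No match of one motif overlapped a match of another, although matches of 1 motif on opposite strands could overlap. The windows of the adhesion genes, which rose, are printed first, followed by those of 3 genes with a match and with few or no reads. Each runs 5′ to 3′ on the gene's strand, and capitals mark the NF-κB consensus.
Icam1, chr8:27829595-27829844, plus strand: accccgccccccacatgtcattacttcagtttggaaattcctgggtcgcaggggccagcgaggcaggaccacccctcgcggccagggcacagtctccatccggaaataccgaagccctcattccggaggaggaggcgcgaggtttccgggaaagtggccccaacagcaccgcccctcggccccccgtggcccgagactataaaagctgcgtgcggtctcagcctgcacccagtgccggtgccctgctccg
Vcam1, chr2:206742784-206743033, minus strand: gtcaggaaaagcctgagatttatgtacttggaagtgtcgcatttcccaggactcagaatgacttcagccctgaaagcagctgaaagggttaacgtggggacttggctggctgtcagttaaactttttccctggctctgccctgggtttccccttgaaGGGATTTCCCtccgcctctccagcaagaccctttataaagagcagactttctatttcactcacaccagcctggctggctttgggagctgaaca
Cxcl1, chr14:17479322-17479571, minus strand: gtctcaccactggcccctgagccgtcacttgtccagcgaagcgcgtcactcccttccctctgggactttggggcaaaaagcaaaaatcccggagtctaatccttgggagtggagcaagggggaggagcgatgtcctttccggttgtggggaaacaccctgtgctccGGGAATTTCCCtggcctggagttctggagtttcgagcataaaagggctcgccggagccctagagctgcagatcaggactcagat
Cxcl2, chr14:17467256-17467505, minus strand: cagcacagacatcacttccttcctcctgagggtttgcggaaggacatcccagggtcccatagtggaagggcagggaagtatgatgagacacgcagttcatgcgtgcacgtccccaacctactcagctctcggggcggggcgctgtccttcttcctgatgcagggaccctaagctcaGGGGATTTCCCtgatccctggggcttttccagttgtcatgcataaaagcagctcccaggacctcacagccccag
Il6, chr4:5894576-5894825, minus strand: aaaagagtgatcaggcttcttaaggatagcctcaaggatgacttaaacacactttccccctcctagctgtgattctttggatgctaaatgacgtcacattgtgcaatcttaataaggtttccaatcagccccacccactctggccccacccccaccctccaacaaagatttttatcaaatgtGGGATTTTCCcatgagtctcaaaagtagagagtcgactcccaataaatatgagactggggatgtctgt
Matches lay at similar distances in Vcam1 (bases 93 to 84 before the start) and Il6 (68 to 59). Those of Cxcl1 and Cxcl2 were close to these, both within 84 to 64 bases before the start. That of Lcn2 lay farther out (242 to 233), and the Icam1 window held no match to the consensus as searched. Sequences that depart from this consensus were not searched for, so a lack of a match does not show a lack of a site. Of the genes with a match, Vcam1 rose, Cxcl1 and Lcn2 had few reads in both groups, and Il6 and Cxcl2 had no read. Of those without one, Icam1 rose, Ptgs2 and C3 were not called, and Il1b was not tested. Ccl2 had no window, and whether matches relate to the response to glutamate was not tested. A match describes letters and not a bound site, and the files are on build rn6, so these positions belong to GRCr8 alone.

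Total counts ran from 166567977 to 181352365 per library, so that 1 read was worth 0.00556 to 0.00600 CPM (counts scaled to a common library size by the TMM method). A count of 0 in a library allows up to 3 reads (a one-sided 95% limit), or 0.0167 to 0.0180 CPM. Even numbers made up 67.0% to 68.3% of the values from 2 to 20 reads in each library, against 50.0% to 50.8% of values above 1000 reads. All 6 values of Ccl2, Cxcl1 and Ptgs2 were even. Icam1 and Vcam1 each had 2 even values of 6, C3 had 4 of 6, and Lcn2 had 3 of its 5 above 0. The 1 value of Il1b above 0 was even. The sources used here do not say whether both ends of a fragment were counted, and this was not tested. Intervals computed from reads treat each read as independent and cover counting error only, so they may be too narrow. The count tables carry no gene names beyond the 10 IDs of the list, so receptors, NF-κB feedback genes and markers of microglia, endothelium or ependyma could not be examined. For the same reason the labelled cell type was not checked against its markers, and the part of other cell types in the results below was not tested. In bulk RNA, more expressing cells and more RNA per cell cannot be told apart.

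A gene was tested when about 10 or more reads were present in enough libraries (edgeR's filterByExpr), and it was called at a Benjamini-Hochberg adjusted p below 0.05 over all 15919 genes tested. Of the 10 genes, 5 were tested (Ccl2, Ptgs2, Icam1, Vcam1 and C3), 3 had reads but were not tested, and 2 had none. Among the 5, 3 were called higher with glutamate and 0 lower, where 14.1% of all tested genes were called higher and 13.7% lower. Among tested genes with a mean below 1 CPM, where all of the 5 but Vcam1 lay, 10.9% were called higher and 3.69% lower, and between 1 and 10 CPM, where Vcam1 lay, 18.9% were called higher. The median log2 fold change was 0.69 over the 5 and -0.01 over all tested genes. Ccl2 passed the filter through its glutamate libraries alone, so that it had to differ, and neither the count nor the median over the 5 is read as a result about the list. The number of genes called in either direction over the whole table, 4413, fell to 2603 without control replicate 2 and to 2442, 2420 and 2436 without glutamate replicates 1, 2 and 3. The called genes of the list then numbered 2 in each of these fits.

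**Figure D1:**
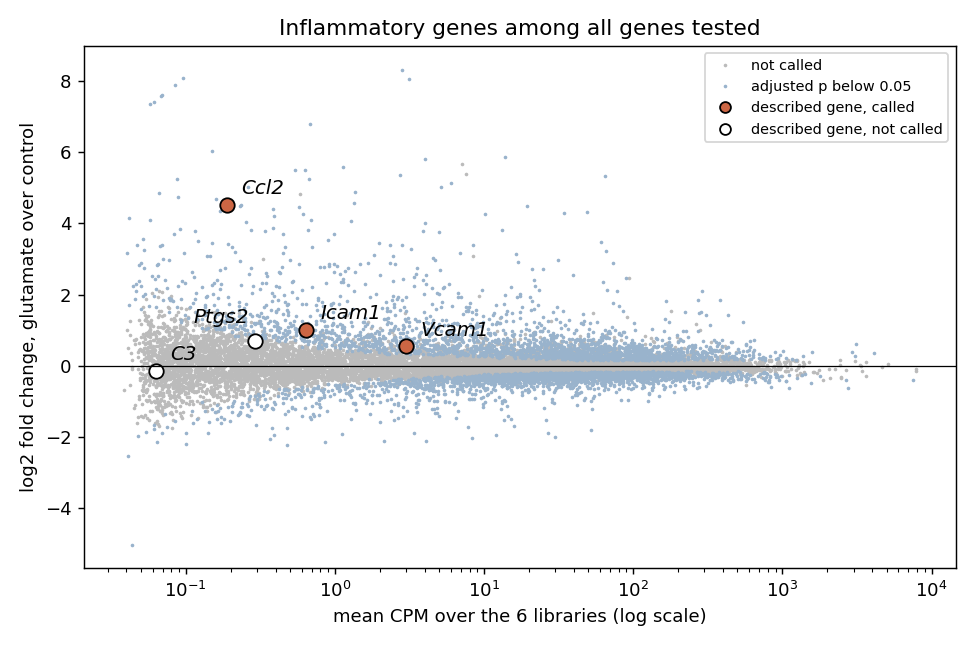
Each point is 1 of the 15919 genes tested, with its mean over the 6 libraries in CPM on a log axis and its log2 fold change (glutamate over control) on the vertical axis. Filled circles are the called genes Ccl2, Icam1 and Vcam1, and open circles are Ptgs2 and C3, which were not called; Ccl2 stands near the upper edge of the cloud at 4.53, and C3 lies just below 0 at -0.15.

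Of the cytokines, Il6 (ENSRNOG00000010278), a gp130 ligand that drives STAT3 signalling in glia, had 0 reads in every control and every glutamate library. Taken over a whole group, 0 reads allow up to 0.00567 CPM in control and 0.00580 CPM in glutamate cultures. Rows with 0 reads in all 6 libraries were common and made up 33.3% of the table. Il1b (ENSRNOG00000004649), the precursor of the secreted cytokine IL-1β, had 2 reads in control replicate 1 and 0 in the other 5 libraries. The glutamate group thus had no Il1b read, and a difference from control was not detectable at this depth. With no filter on low counts Il1b had an edgeR adjusted p of 0.459.

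Among the chemokines, Ccl2 (ENSRNOG00000007159), the ligand of the monocyte receptor CCR2, had 4, 2 and 2 reads in control replicates 1 to 3 and 56, 72 and 60 reads in glutamate replicates 1 to 3. These were 0.0222, 0.0111 and 0.0118 CPM in control libraries and 0.316, 0.416 and 0.360 CPM with glutamate. The lowest glutamate library stood far above the highest control library, and the counting intervals of the groups did not meet, with an upper bound of 0.0569 CPM in control replicate 1 and a lower bound of 0.238 CPM in glutamate replicate 1 (exact Clopper-Pearson 95%). Group means were 0.0150 ± 0.0062 CPM in control and 0.364 ± 0.050 CPM with glutamate (SD, n = 3 each). The fitted log2 fold change was 4.53 (SE 0.40, edgeR quasi-likelihood adjusted p = 5.22e-05), with a 95% interval of 12.4-fold to 42.8-fold. Since control libraries held so few reads, the fold was also taken from the summed reads, 188 against 8. This gave a ratio of 24.1 with an exact counting interval of 11.96 to 56.6. Ccl2 entered this fit through its glutamate libraries alone, and in the fit with no filter on low counts, where its entry did not depend on them, the log2 fold change was 4.52 (edgeR adjusted p = 1.85e-06). Even at its glutamate level, Ccl2 remained below 1 CPM in each library.

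Cxcl1 (ENSRNOG00000002802) and Cxcl2 (ENSRNOG00000002792), neighbouring CXC chemokine genes that act on the neutrophil receptor CXCR2, held few or no reads in both groups. Cxcl1 had 4, 2 and 10 reads in control replicates 1 to 3 and 4, 2 and 2 reads in glutamate replicates 1 to 3. The groups overlapped, and the highest value was that of control replicate 3, at 0.0589 CPM (exact 95% interval 0.0282 to 0.108). Summed reads were 8 with glutamate against 16 in control, a ratio of 0.512 with an exact counting interval of 0.190 to 1.27. With no filter on low counts the log2 fold change of Cxcl1 was -0.96, with a 95% interval of -3.03 to 1.11 (edgeR adjusted p = 0.542). Cxcl2 had 0 reads in all 6 libraries, with the same limits as Il6. How reads shared between near-identical copies were treated is not stated, so the values of these chemokine genes are uncertain.

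**Figure D2:**
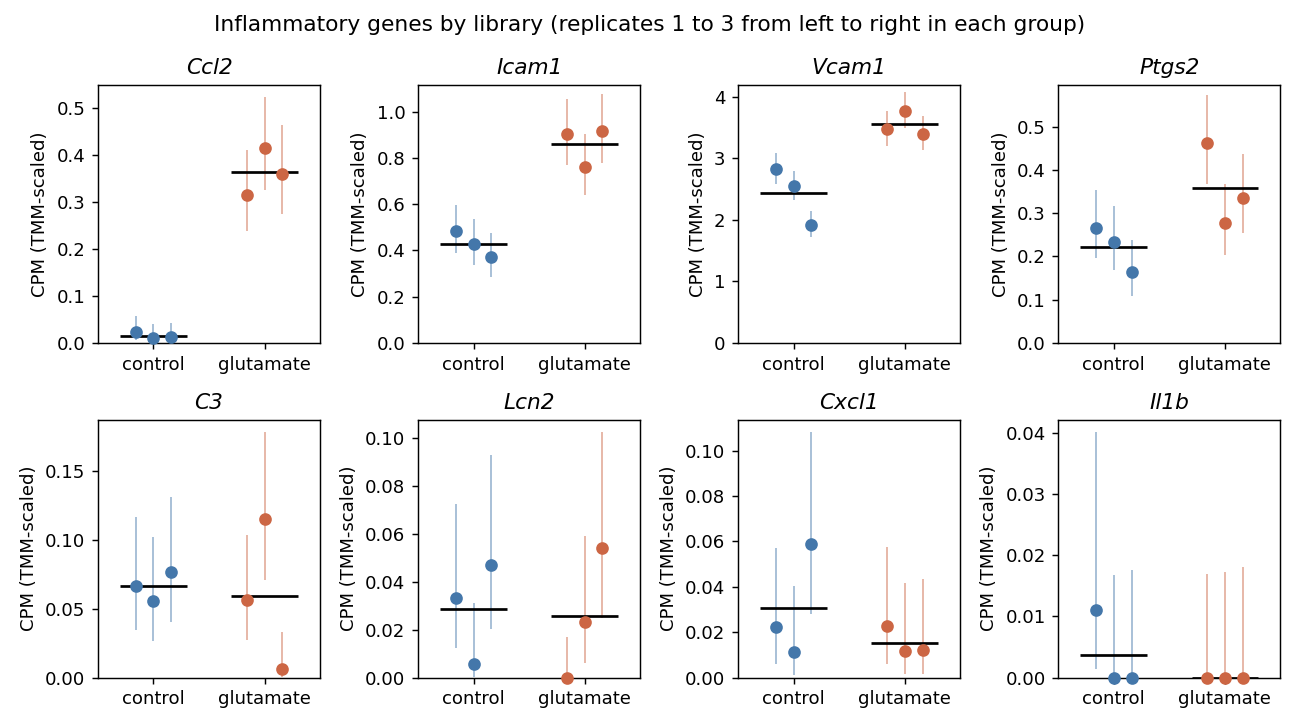
TMM-scaled CPM of the 8 genes with a read, by group, on linear axes that start at 0 and differ between panels; points are libraries, thin lines their exact 95% counting intervals (for a count of 0, up to the limit of 3 reads) and black bars group means (n = 3). In Ccl2, Icam1, Vcam1 and Ptgs2 all 3 glutamate libraries lie above all 3 control libraries, while in C3, Lcn2, Cxcl1 and Il1b the groups overlap. Among all genes tested, 22.8% had no overlap with glutamate higher, and Ccl2 was tested through its glutamate libraries alone.

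Ptgs2 (ENSRNOG00000002525), the inducible cyclooxygenase, had 48, 42 and 28 reads in control replicates 1 to 3 and 82, 48 and 56 reads with glutamate. In CPM these were 0.267, 0.234 and 0.165 against 0.462, 0.277 and 0.336. The groups did not overlap, but the lowest glutamate library, replicate 2, was close to control replicate 1. Groups without overlap were found in 46.8% of all genes tested, and in 22.8% with glutamate higher. Means were 0.222 ± 0.052 CPM in control and 0.359 ± 0.095 CPM with glutamate (SD, n = 3 each). The log2 fold change was 0.69 (SE 0.29), a fold of 1.61 with a 95% interval of 1.02 to 2.55. Its edgeR p of 0.042 became 0.11 after adjustment over all genes, so that Ptgs2 was not called, and DESeq2 gave an adjusted p of 0.145. Its interval reaches past the fold of Icam1, so a change of that size was not excluded by these libraries.

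Both adhesion genes rose. Icam1 (ENSRNOG00000020679), the ligand of the integrins LFA-1 and Mac-1, had 87, 77 and 63 reads in control replicates 1 to 3 and 160, 132 and 153 reads in glutamate replicates 1 to 3. In CPM the control libraries were at 0.483, 0.428 and 0.371 and the glutamate libraries at 0.902, 0.762 and 0.919. The groups lay well apart, and each glutamate library held more than any control library. Means were 0.428 ± 0.056 CPM in control and 0.861 ± 0.086 CPM with glutamate (SD, n = 3 each). On the log2 scale the fitted change was 1.01 (SE 0.18), with an adjusted p of 0.00386 by edgeR's quasi-likelihood test and a 95% interval of 1.51-fold to 2.67-fold. A larger log2 fold change was fitted for 725 genes, or 4.55% of those tested.

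Vcam1 (ENSRNOG00000014333), the ligand of the integrin VLA-4 and a surface protein also known from quiescent neural stem cells of the forebrain, rested on 327 to 654 reads per library. It stood at 2.83, 2.55 and 1.92 CPM in control replicates 1 to 3 and at 3.48, 3.78 and 3.40 CPM in glutamate replicates 1 to 3. The groups did not overlap, and the control libraries were more spread than the glutamate libraries. Means were 2.43 ± 0.46 CPM in control and 3.55 ± 0.20 CPM with glutamate (SD, n = 3 each). Glutamate exceeded control by 0.54 on the log2 scale (SE 0.15), with an adjusted p of 0.0233 by edgeR and a 95% interval of 1.16-fold to 1.83-fold. This call was lost when any of 4 libraries was left out, with an adjusted p of 0.0584 without control replicate 2 and of 0.0669, 0.0847 and 0.0634 without glutamate replicates 1, 2 and 3. Over all 6 such fits the fold ran from 1.32 to 1.59. In Icam1, Vcam1 and Ptgs2 alike, control replicate 1 had the highest and control replicate 3 the lowest control value.

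**Figure D3:**
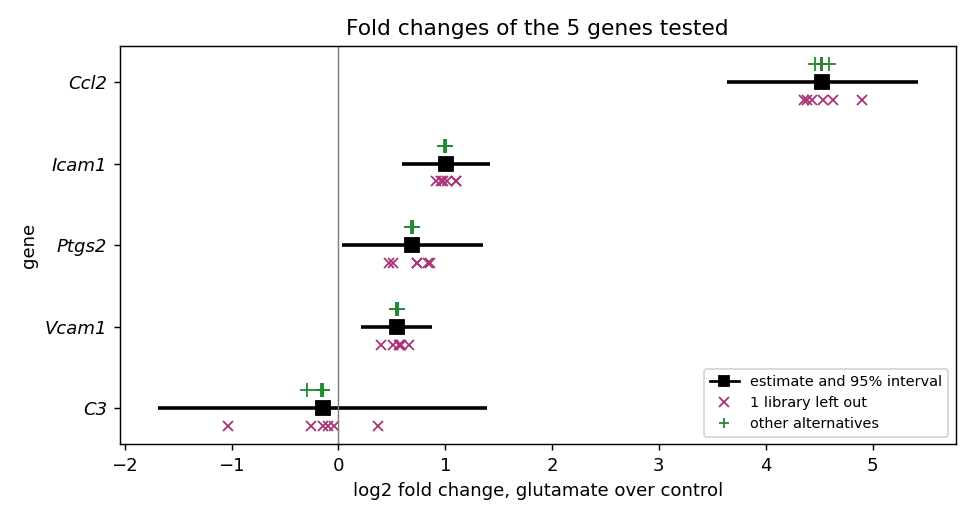
Log2 fold change (glutamate over control) of the 5 genes tested, with squares and bars for the edgeR estimate and its 95% interval, crosses for fits with 1 library left out and plus signs for the other alternatives. The Ccl2 estimates all lie above 4, those of Icam1 between 0.91 and 1.10, and those of C3 on either side of 0.

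Ratios of reads within a library do not depend on how libraries are scaled to each other, and 4 such ratios were computed, chosen after the values were seen. For every 100 Vcam1 reads there were 17.1, 16.8 and 19.3 Icam1 reads in control replicates 1 to 3 and 25.9, 20.2 and 27.0 in glutamate replicates 1 to 3. The groups did not overlap, although glutamate replicate 2 came close to control replicate 3 (exact two-sided permutation p = 0.1, the smallest that 3 against 3 libraries allow, and 0.2 after Benjamini-Hochberg adjustment over the 4 ratios). Ccl2 reads per 100 Vcam1 reads went from 0.611 ± 0.175 in control to 10.2 ± 1.0 with glutamate (SD, n = 3 each), again without overlap (exact permutation p = 0.1, adjusted 0.2). Ccl2 was tested through its glutamate libraries alone, and this ratio restates its rise and is not separate support. Ptgs2 reads per 100 Vcam1 reads were 9.05 ± 0.45 in control and 10.2 ± 3.0 with glutamate (SD, n = 3 each; exact permutation p = 0.7), a difference smaller than the spread. Icam1 reads per 100 Ptgs2 reads were 196.5 ± 24.7 and 247.8 ± 45.6 (SD, n = 3 each; exact permutation p = 0.2, adjusted 0.267), and the groups overlapped. The place of Ptgs2 relative to the adhesion genes was not resolved.

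**Figure D4:**
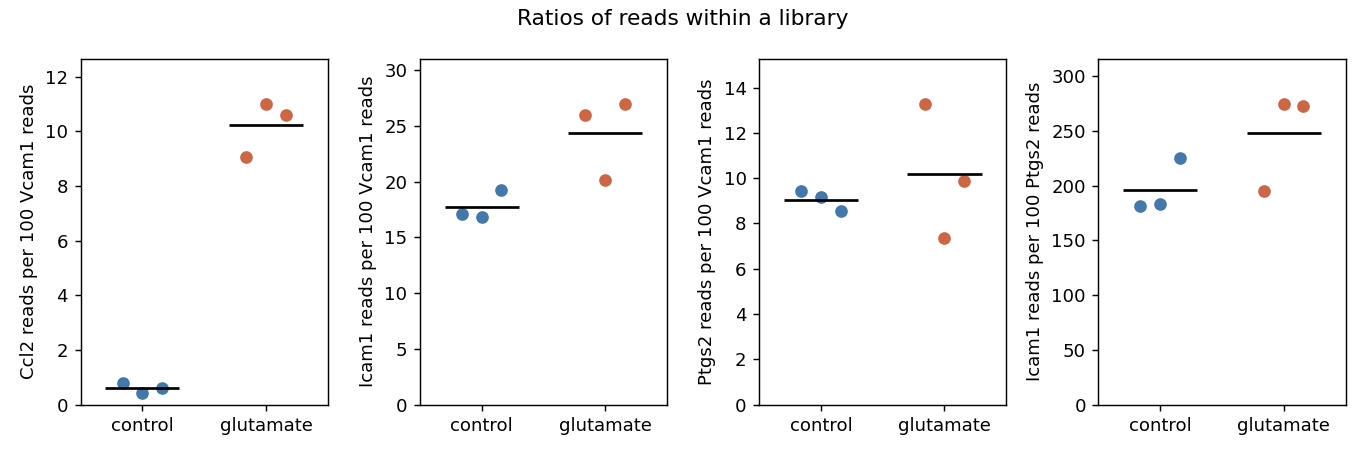
Reads of 1 gene per 100 reads of another in the same library, by group, with points for the 3 libraries and black bars for means; axes are linear and start at 0. Ccl2 and Icam1 against Vcam1 show no overlap between groups, while Ptgs2 against Vcam1 and Icam1 against Ptgs2 overlap.

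The secreted effectors Lcn2 (ENSRNOG00000013973) and C3 (ENSRNOG00000046834) are widely used marks of reactive astrocytes. Lcn2 had too few reads to be tested in the main fit, and C3 was tested and not called. Lcn2 had 6, 1 and 8 reads in control replicates 1 to 3 and 0, 4 and 9 reads in glutamate replicates 1 to 3. The groups overlapped across their whole range, with the lowest and the highest value both in glutamate libraries. The ratio of summed reads, 13 with glutamate against 15 in control, was 0.887 with an exact counting interval of 0.389 to 2.00, and with no filter on low counts the edgeR adjusted p was 0.935. C3 had 12, 10 and 13 reads in control libraries and 10, 20 and 1 reads with glutamate. The control libraries lay close together, while the glutamate libraries spread from 0.0060 CPM in replicate 3 (exact 95% interval 0.000152 to 0.0335) to 0.115 CPM in replicate 2 (0.0705 to 0.178). These intervals did not meet, so replicates 2 and 3 of the glutamate group differed from each other by more than counting error, if reads are independent. The log2 fold change of C3 was -0.15 with a 95% interval of -1.69 to 1.40 (edgeR adjusted p = 0.89), and its sign was decided by 1 library, being 0.37 without glutamate replicate 3 and -1.03 without glutamate replicate 2. These libraries thus leave room for a change of C3 of more than 2-fold in either direction.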

How the data were processed

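For each library the authors deposited a table of unnormalized counts by Ensembl gene ID, per the file headers. The submitters' processing notes name featureCounts 2.0.1, STAR 2.7.8a, Trim Galore 0.6.5 and SAMtools, with build rn6. Libraries were directional, per the labels' protocols. Not given in the sources used here were the strand setting, the annotation release and how shared reads or read pairs were handled, so overlapping and near-identical genes are uncertain. Gene names of the 10 IDs came with the list, since the RefSeq table used here pairs no Ensembl IDs. Other genes could not be named, and the planned pathway and marker lists were not evaluated. All 10 genes are named, whatever their values.

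The test was edgeR 4.0.16 (R 4.3.3) on the counts of all 6 libraries: filterByExpr (minimum count 10, minimum total 15), TMM scaling, robust dispersions, glmQLFTest without covariates, and Benjamini-Hochberg adjustment over 15919 genes. The standard error is the log2 fold change divided by the square root of F, and intervals use the test's degrees of freedom at 95%. Folds of summed reads have exact conditional intervals. No pair of libraries within a group matched within sampling noise (chi-square per gene 19.0 to 160.3, where noise gives 1 if reads are independent). Control replicate 1 gave the highest of these, against control replicate 3. Alternatives were RLE factors, total counts, DESeq2 1.42.0, no filter beyond 1 count, the replicate number as a block, a minimum of 1 CPM in 3 libraries, leaving out each library, and halved counts, the last chosen after the data were seen. The genes and lists were chosen with earlier results of these data known.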

Additional observations from a re-analysis of the deposited data

How the results depend on the processing

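Ccl2 and Icam1 kept their direction and their call in each of the 12 alternatives that tested them, with folds of 20.5 to 29.9 and of 1.88 to 2.15 and adjusted p of at most 0.000652 and 0.0223. Ccl2 entered the fits that used filterByExpr through its glutamate libraries alone, so its kept call there is not separate support. With no filter on low counts the edgeR adjusted p of Ccl2 was 1.85e-06. Vcam1 kept its direction in 13 alternatives and lost its call in 4, each with 1 library left out. Ptgs2 remained higher and uncalled in 12 alternatives (adjusted p 0.0727 to 0.332). The log2 fold change of C3 ran from -1.03 to 0.37 with 1 library left out, changing sign without glutamate replicate 3 (0.37), and was uncalled in all 11 that tested it. The count of called genes of the list was 3, and it was 2 to 3 with 1 library left out. It was 1 with the filter of 1 CPM in 3 libraries, because Vcam1 alone was then tested. Among all genes tested, 4413 were called, and 2420 to 5584 with 1 library left out; the cause was not tested. With the replicate number as a block, 3 genes of the list were called (Ccl2, Icam1 and Vcam1, adjusted p 0.000223, 0.00626 and 0.0155) and 4553 among all genes. The labels do not say that the numbers pair libraries. Same-numbered deviations correlated at 0.10, -0.02 and 0.14, and 2 of 3 libraries in each group correlated best with their own number. Halving all counts, an alternative chosen after the data were seen, left C3 untested and gave the same calls for the other 4 genes (Vcam1 adjusted p 0.0231). Depth limits Il6, Il1b, Cxcl1, Cxcl2 and Lcn2, for which a lack of a call does not show a lack of change.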
